A study of Mus musculus with 2 samples.

Results

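The *Igf2*/*Slc4a10*/*Sfrp4* fibroblasts are collagen-expressing cells of the mouse dorsal root ganglion (DRG) that were chosen by 8 of their own transcripts. A cell was counted as one of them when the summed unique molecular identifiers (UMIs, each marking 1 captured transcript) of *Igf2*, *Slc4a10*, *Sfrp4* and *Bnc2* reached at least 4 and at least 2 times the sum of *Smoc2*, *Ccl11*, *Gpc3* and *Tgfbi*. It also had to be a fibroblast, with *Col1a1* plus *Pdgfra* at 5 or more per 10000 UMIs, *Fabp7* under 30 per 10000 UMIs, at most 2 UMIs each of *Ncmap*, *Scn7a*, *Rgs5*, *C1qa* and *Flt1*, and fewer than 3 UMIs of *Slc2a1*, *Itgb4*, *Cldn1* and *Perp* together. The rule found 200 such cells, 97 in sample 1 and 103 in sample 2, among 16346 cells with over 300 genes, at least 2000 UMIs and a mitochondrial share of up to 22%. They made up 1.19% of the cells of sample 1 (exact binomial 95% interval 0.965 to 1.45%) and 1.26% of sample 2 (1.03 to 1.52%). Of all 551 fibroblasts they were 38.3% in sample 1 (32.3 to 44.6%) and 34.6% in sample 2 (29.2 to 40.3%), so the samples did not differ beyond counting error. The share moved more with the rule than between samples, to 21.3% and 22.5% when a ratio of 4 and 8 UMIs were asked for and to 54.6% and 44.8% when no UMI of *Ncmap*, *Scn7a*, *Rgs5*, *C1qa* or *Flt1* and *Fabp7* under 10 per 10000 UMIs were allowed. The remaining fibroblasts were 294 cells in which the *Smoc2* sum was at least 2 times the *Igf2* sum and at least 4 UMIs, called *Smoc2* fibroblasts here, and 57 cells that met neither condition.

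Both samples were L4 and L5 DRGs of naive female C57BL/6 mice of 3 months, dissociated with papain and collagenase, sorted as live cells and profiled by 10x Genomics single-cell RNA sequencing. No allele, injury or drug was involved, and whether a sample held 1 mouse or several is not stated in the sources used here. The files held 119101743 UMIs for sample 1 and 128668771 for sample 2, over all droplets. The *Igf2* fibroblasts had a median of 13793 UMIs in sample 1 and 13635 in sample 2, with a median mitochondrial share of 6.85% and 6.93%, and the 2 libraries shared no barcode among them. In the *Smoc2* fibroblasts the medians were 10858.5 and 11424.5 UMIs, with a mitochondrial share of 4.49% and 4.30%. The barrier-gene cells described below had a median share of 8.67% and 7.11%. What part these differences play in the comparisons was not tested. Since p-values rest on 2 samples, they measure the spread between these dissociations only.

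The DRG is wrapped and partitioned by connective tissue: fibroblasts of the outer sheath and the epineurium lay down fibrillar collagen, perineurial cells form a barrier, and endoneurial fibroblasts lie among the axons and glia. At the nerve root the sheath passes into the meninges, whose fibroblasts carry many transporters. *Igf2* encodes insulin-like growth factor II, a fetal growth factor expressed from the paternal allele of an imprinted locus that also gives the noncoding RNA *H19*; *Slc4a10* encodes a sodium-dependent bicarbonate transporter, *Sfrp4* a secreted Wnt antagonist and *Bnc2* a zinc finger protein of connective tissue cells.

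The genes of the rule are described first, with no test, because they chose the cells. Levels are given as counts per 1000000 UMIs (CPM) in the summed cells of a sample, scaled by TMM, the trimmed mean of M-values. *Igf2* (mm10 chr7:142650766-142666816, minus strand) stood at 1532 and 1207 CPM in samples 1 and 2 of these cells, against 9.01 and 1.66 CPM in *Smoc2* fibroblasts. *Slc4a10* (chr2:62046462-62326730, plus strand) stood at 1410.5 and 1107 CPM against 0.751 and 3.87 CPM, and *Sfrp4* (chr13:19623104-19632994, plus strand) at 3387 and 4605 CPM against 30.05 and 22.1 CPM. *Bnc2* (chr4:84275095-84675275, minus strand) was the least selective of them, with 1289 and 1186 CPM here and 158 and 170.2 CPM in *Smoc2* fibroblasts. On the opposing side, *Ccl11* (eotaxin) was nearly absent, at 11.4 and 10.9 CPM against 1644 and 1444 CPM. *Smoc2* itself was not, at 890.0 and 781 CPM against 1485 and 1362 CPM, so the name of the other fibroblasts refers to the sum and not to *Smoc2* alone.

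The 4 genes were read at equal depth by drawing 2000 UMIs from each cell. *Sfrp4* was then detected in 86.6% and 91.3% of the *Igf2* fibroblasts of samples 1 and 2, and *Slc4a10* in 80.4% and 78.6%. *Igf2* was found in 48.5% and 51.5%, so about as many cells lacked it as held it at this depth, and in the full data 36.1% and 32.0% of the cells had none. In *Smoc2* fibroblasts the same draw gave *Igf2* in 0.794% and 1.19% and *Sfrp4* in 5.56% and 5.36%. Satellite glial cells (SGCs), which should hold neither, gave *Igf2* in 0 of the 300 cells drawn from each sample, which limits only the share of cells with a UMI at this depth, to 1%, and *Sfrp4* in 4.33% and 3.67%; their median depth before the draw was 16042.5 and 16853 UMIs. Of the *Igf2* fibroblasts, 27.8% and 32.0% held all 4 genes at this depth and 46.4% and 43.7% held 3 of them.

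The sum of the 4 *Igf2*-side genes had a median of 101 and 107 UMIs per cell in the *Igf2* fibroblasts of samples 1 and 2, and the *Smoc2*-side sum a median of 21 and 20 UMIs. The ratio of the sums was 8 or more in 60 fibroblasts, from 4 to 8 in 63, from 2 to 4 in 78, from 1 to 2 in 39, between 0.125 and 1 in 27, and below 0.125 in 275. The remaining 9 fibroblasts had no UMI of any of the 8 genes, and 1 cell with a ratio over 2 missed the minimum of 4 UMIs. The 5 cells just inside the limit had ratios of 2 to 2.04 and the 5 just outside had ratios of 1.86 to 1.95; all 10 had 0 UMIs of *Ccl11* and at least 52 UMIs of the *Igf2*-side sum. These counts describe the 8 genes of the rule only. A further 61 cells met every condition but the one on *Slc2a1*, *Itgb4*, *Cldn1* and *Perp*, 28 every condition but the one on *Ncmap*, *Scn7a*, *Rgs5*, *C1qa* and *Flt1*, and 7 every condition but the one on *Fabp7*.

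**Figure D1:**
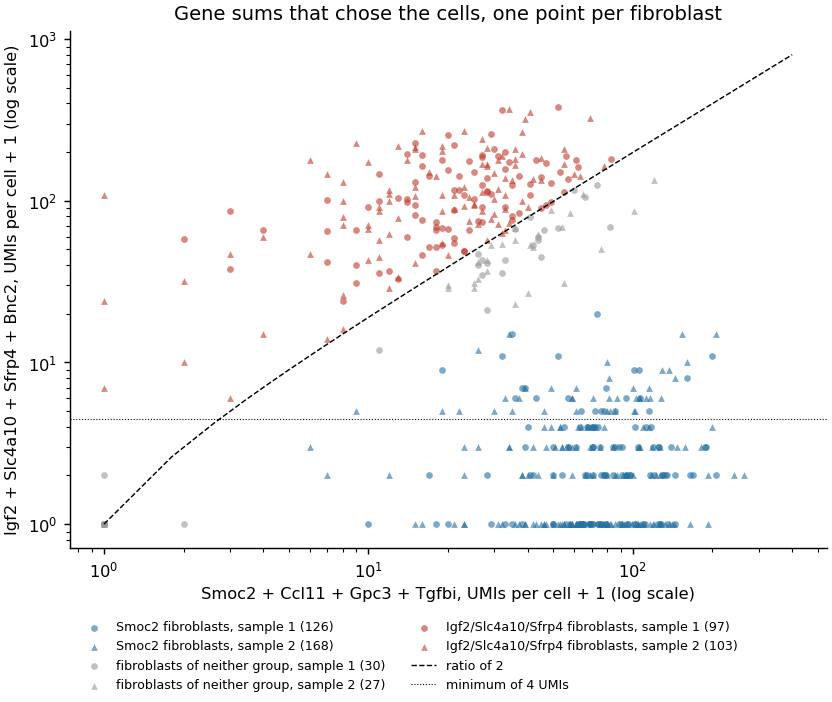
Each point is 1 of the 551 fibroblasts; the x axis is the summed UMIs of *Smoc2*, *Ccl11*, *Gpc3* and *Tgfbi* plus 1 and the y axis those of *Igf2*, *Slc4a10*, *Sfrp4* and *Bnc2* plus 1, both on log scales, with circles for sample 1 and triangles for sample 2. The 200 *Igf2* fibroblasts lie above the dashed ratio of 2, most of the 57 cells of neither group lie just below it, and the 294 *Smoc2* fibroblasts form a separate cloud at the bottom right.

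When each gene was left out of the rule and read in the cells that the other 3 still chose, all 4 stayed higher than in the *Smoc2* fibroblasts chosen in the same way, which describes the rule and tests nothing (CPM, without TMM). The rule without *Igf2* chose 88 and 92 cells, in which *Igf2* stood at 1492 and 1094 CPM, against 8.75 and 19.7 CPM, and the rule without *Slc4a10* chose 83 and 88 cells, with *Slc4a10* at 1367 and 1109 CPM against 34.9 and 26.7. Without *Sfrp4* only 56 and 57 cells were chosen, with *Sfrp4* at 2398 and 3452 CPM against 438 and 216, a smaller contrast than under the full rule. *Bnc2* stood at 1110.0 and 1142 CPM against 248 and 226 when left out, and 61.7% and 57.5% of the *Smoc2* fibroblasts held a UMI of it.

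The 250 bases upstream of a start site were read from RefSeq (GRCm38.p6) for *Igf2*, *Slc4a10* and *Dio2*, the last being the gene outside the rule with the largest ratio to any other cell group (below). They are shown as the starts of 2 genes that name these cells and of the gene with the largest such ratio, with 1 window per gene chosen for display. Capitals mark TATA boxes (TATAAA), GC boxes (GGGCGG) and CCAAT boxes (CCAAT), searched on both strands:
Igf2: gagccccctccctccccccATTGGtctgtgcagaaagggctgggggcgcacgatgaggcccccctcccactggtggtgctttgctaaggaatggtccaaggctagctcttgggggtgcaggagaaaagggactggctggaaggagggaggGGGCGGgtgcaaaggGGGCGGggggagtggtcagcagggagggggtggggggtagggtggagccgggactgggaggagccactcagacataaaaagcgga
Slc4a10: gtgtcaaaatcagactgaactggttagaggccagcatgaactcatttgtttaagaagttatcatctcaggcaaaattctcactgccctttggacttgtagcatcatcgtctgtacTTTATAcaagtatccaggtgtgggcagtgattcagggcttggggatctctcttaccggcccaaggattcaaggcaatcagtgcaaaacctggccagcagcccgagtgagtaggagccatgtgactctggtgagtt
Dio2: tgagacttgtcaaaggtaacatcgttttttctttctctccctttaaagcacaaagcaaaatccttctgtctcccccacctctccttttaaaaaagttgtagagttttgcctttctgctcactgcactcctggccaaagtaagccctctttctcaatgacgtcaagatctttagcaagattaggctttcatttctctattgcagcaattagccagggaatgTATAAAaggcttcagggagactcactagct
The *Igf2* window, chr7:142657497-142657746 on the minus strand, is the most downstream of 4 listed for that gene; it is 66% G and C and held 2 GC boxes and 1 CCAAT box. The 3 others are 47.6 to 68.8% G and C, 1 with a GC box and 2 with none of the motifs. The *Slc4a10* window, chr2:62046265-62046514 on the plus strand, is 47.6% G and C, with 1 TATA box 135 bases before the start; a second window listed for it, at chr2:62147628-62147877, is 42.8% G and C with 1 CCAAT box and no TATA box. The *Dio2* window, chr12:90739039-90739288 on the minus strand, is 41.6% G and C and has 1 TATA box 30 bases before the start. Among 32851 promoter windows of this length, 12.4% held TATAAA, 32.7% GGGCGG and 33.8% CCAAT. Which start site was used in these cells was not measured, since 3′ counts do not show it.

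The *Igf2* fibroblasts were next compared with the 7 cell types outside connective tissue, taken as an equally weighted mean. These were SGCs, myelinating and non-myelinating Schwann cells, neurons, mural cells, endothelial cells and macrophages, each cut by marker genes. The rule asked for *Col1a1* plus *Pdgfra* and limited *Fabp7*, *Ncmap*, *Scn7a*, *Rgs5*, *C1qa* and *Flt1*. In each of the 7 types the median cell held no *Col1a1* or *Pdgfra*. Genes that go with these therefore differ by construction, so the comparison describes the chosen cells and cannot check the label. All 14 fibroblast markers of a fixed list were higher in the *Igf2* fibroblasts, where 19.1% of the 17317 genes tested were higher and 16.2% lower (64.6% of the calls were higher without TMM, against 54.2% with it, and 1862 genes in place of 2799 were lower without sample 1 of the *Igf2* fibroblasts). In 5.69% of the genes both samples of the *Igf2* fibroblasts stood above both samples of each of the 7 types, and in 3.01% below. *Col3a1*, a fibrillar collagen, stood at 4536 and 5398 CPM here and at 49.1 and 49.8 CPM in SGCs (log2 fold change over the mean 6.75 ± 0.08, SE). *Col6a1*, a chain of the beaded-filament collagen, stood at 687 and 782 CPM against 0.624 and 1.10 CPM in SGCs (8.15 ± 0.12). The least of the 14 was *Thy1*, a surface protein that neurons also carry (1.84 ± 0.51); without sample 2 of the *Igf2* fibroblasts its adjusted p was 0.417. The adjusted p was 0.00816 or less for the 3 genes in edgeR's quasi-likelihood test with Benjamini-Hochberg adjustment over all genes tested, which gave every adjusted p below. *Mgp* and *Mfap5*, matrix proteins that were named as markers of these cells with earlier results known, stood at 5395 and 5450.1 CPM and 1178 and 1258 CPM; each was also present in *Smoc2* fibroblasts, at 1657 and 1586 CPM and 378 and 297 CPM.

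Markers of other cell types were not at 0. The 6 SGC markers summed to 430.2 and 480.2 CPM in samples 1 and 2, against 4059 and 4065 CPM in SGCs, and most of it was *Glul* (351 and 386 CPM), which many cell types use. The 6 myelinating Schwann cell markers summed to 436 and 537 CPM, most of it *Pmp22* (358 and 389.7 CPM). Neuron markers summed to 49.1 and 68.7 CPM, mural markers to 155 and 153 CPM (*Tagln* at 121 and 134 CPM), endothelial markers to 45.1 and 44.9 CPM (*Cdh5* at 34.3 and 36.0 CPM), and macrophage and leukocyte markers to 22.2 and 25.04 CPM (*Cd74* at 10.1 and 10.3 CPM). Non-myelinating Schwann cell markers summed to 145 and 134 CPM, most of it *S100b*, and the 3 adipocyte and muscle markers tested were at 0. The mural list differed most from the *Smoc2* fibroblasts, at 11.3 and 23.2 CPM there. The non-myelinating Schwann cell markers summed to 168 and 242 CPM and the macrophage and leukocyte markers to 30.05 and 45.9 CPM in those fibroblasts. Against the mean of the 7 types, 5 of 6 SGC, 5 of 6 myelinating and 4 of 6 non-myelinating Schwann cell, 6 of 6 neuron and 2 of 7 macrophage and leukocyte markers were lower, and of the SGC list *Glul* was higher (1.00 ± 0.10). Of 6 mural markers none was lower and *Tagln* was higher (2.28 ± 0.26), with a median of 1.32 for the list. Of 6 endothelial markers 1 was lower and 2, *Cdh5* and *Tek* (adjusted p 0.0396 or less), were higher. *Tek* gave only 9 and 3 UMIs in the *Igf2* fibroblasts. In this comparison a type's own cells are 1 of the 7 averaged on the log scale, where types near 0 lower the mean. A marker called higher can therefore still lie below the level in its own type. The part of RNA from other cells in the results below was not tested. An estimated 2.37% and 2.83% of the UMIs of these cells came from RNA of empty droplets.

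Among genes outside the rule, the 10 of largest contrast with the 7 types included a deiodinase, secreted proteins, a noncoding RNA and a transporter. *Dio2*, the deiodinase that makes active thyroid hormone inside cells, stood at 736 and 456 CPM against at most 1.15 CPM in any of the 7 types (log2 fold change 11.87 ± 0.20). *Clec3b*, which encodes tetranectin, stood at 340.0 and 352 CPM and was 11.19 ± 0.18 higher. *H19*, the maternally expressed noncoding RNA beside *Igf2* (chr7:142575529-142578143), stood at 1108 and 1007 CPM against at most 1.44 CPM (10.67 ± 0.18). In both samples each of the 3 was above every one of the 7 types, which was a condition for naming them. The other 7 genes of largest increase were *Krtdap*, *Sytl5*, *Gm29478*, *Mfap4*, *Cpz*, *Tspan11* and *Slc47a1*, with fitted log2 fold changes of 9.88 to 11.38. These and the 3 folds above are not exact, since each gene had no UMI in at least 1 sample of some of the 7 types. *Krtdap* had none in either sample of myelinating and non-myelinating Schwann cells, neurons, endothelial cells and macrophages. At the other end *Chn2*, *St8sia4*, *Nrros*, *Sgpp2* and *Dock2*, several of them genes of leukocytes, were at 0 in both samples, which allows up to 0.986 CPM (3 UMIs over both samples), and *Pcp4l1*, *Ctnna3*, *Dtna*, *Fmn2* and *6330403K07Rik* were lower, with log2 fold changes of -6.50 to -4.78. The adjusted p of all 20 genes was 0.0104 or less. Without sample 1 or sample 2 of the *Igf2* fibroblasts it was 0.0783 and 0.0859 for *St8sia4* and 0.0549 and 0.0607 for *Nrros*, and with empty-droplet RNA subtracted *St8sia4*, *Sgpp2*, *Dock2* and *6330403K07Rik* did not pass.

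**Figure D2:**
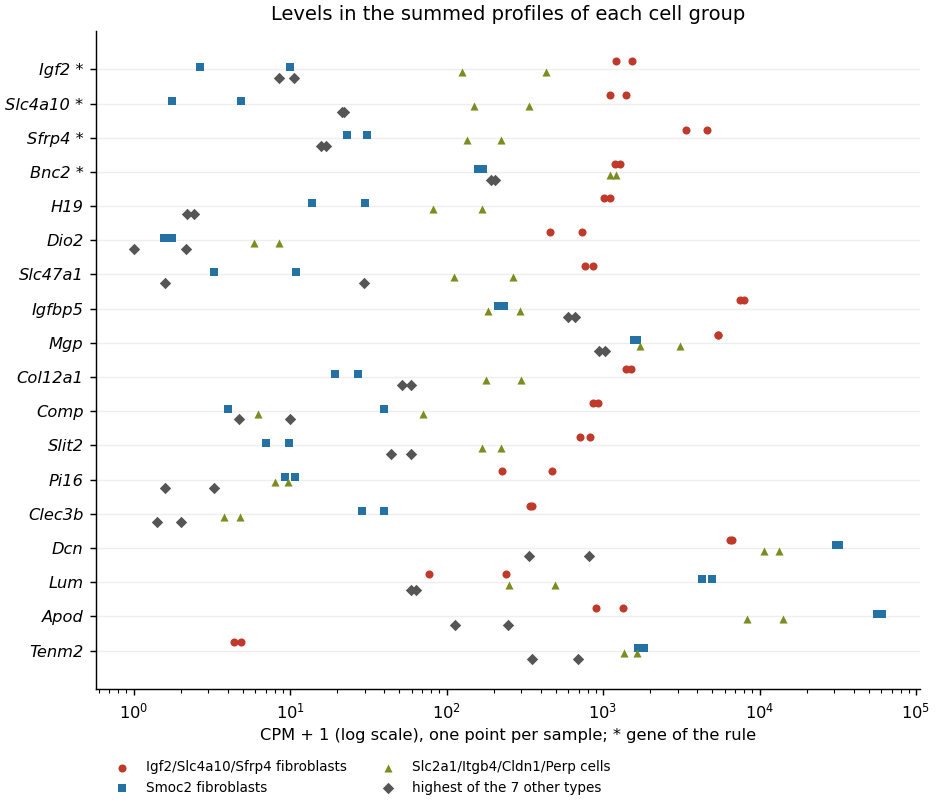
Levels of 18 genes in the summed profiles, in CPM plus 1 on a log scale, with 1 point per sample for the *Igf2* fibroblasts (circles), the *Smoc2* fibroblasts (squares), the *Slc2a1*/*Itgb4*/*Cldn1*/*Perp* cells (triangles) and the highest of the 7 other types (diamonds); asterisks mark genes of the rule. From *Igf2* down to *Clec3b* the *Igf2* fibroblasts lie to the right of every other group in both samples, except for *Bnc2*, where the triangles overlap them, and from *Dcn* to *Tenm2* the *Smoc2* fibroblasts lie to the right of them.

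The next comparison asks how the 2 fibroblast kinds of the same ganglion differ. Against the *Smoc2* fibroblasts, 1587 genes were higher in the *Igf2* fibroblasts (9.16% of the 17317 tested) and 1839 were lower (10.6%). Both samples of the *Igf2* fibroblasts lay above both samples of the *Smoc2* fibroblasts in 24.5% of the genes tested and below both in 26.2%, so samples that lie apart, as stated for genes below, were common among all genes. Without TMM, on total UMIs alone, 2152 were higher and 1477 lower, so the share of higher genes among the calls was 59.3% in place of 46.3%, with a shift of all genes by 0.14 on the log2 scale. The genes of largest increase included a deiodinase, transporters and a peptide receptor, and those of largest decrease a cell cycle inhibitor, a protease inhibitor and neuronal adhesion and splicing genes. Both groups were cut from expression in the same cells, so genes that go with the 8 genes of the rule differ by construction, and the tests describe how far 2 chosen sets of cells stood apart.

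*Dio2* differed widely between these 2 groups. It gave 1804 UMIs over both samples against 2 UMIs in the *Smoc2* fibroblasts, 736 and 456 CPM against 0.751 and 0.553 CPM, a ratio of 931 with a 95% counting interval of 257 to 7694. At 2000 UMIs per cell it was detected in 43.3% and 35.9% of the cells and in 0 of 126 and 0 of 168 *Smoc2* fibroblasts, which limits only the cells with a UMI at this depth, to 2.38% and 1.79%. *Gm26512*, a gene model that overlaps *Dio2* on the other strand, followed it at 269 and 173 CPM against 1.502 and 1.66 CPM; whether reads of the 2 were told apart by strand is not given in the sources used here.

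*Slc47a1*, an exporter of organic cations, stood at 860.4 and 763 CPM against 2.25 and 9.95 CPM (log2 fold change 6.93 ± 0.52). *Slc38a1*, a neutral amino acid carrier, stood at 79.4 and 66.1 CPM and had no UMI in either sample of the *Smoc2* fibroblasts, which makes it at least 76.0-fold higher against a floor of 3 UMIs. *Slc26a7*, an anion exchanger, stood at 82.8 and 73.2 CPM against 0 and 1.11 CPM, and *Slc35g1*, a solute carrier of the membrane, at 72.7 and 48.8 CPM against 0 and 0.553 CPM. That the samples lay apart was a condition for naming these 4 genes. *Npy1r*, the receptor for neuropeptide Y, stood at 135 and 175 CPM against 0 and 1.11 CPM. *Gap43*, best known as a growth cone protein, stood at 79.4 and 90.5 CPM against 0.751 and 0.553 CPM (7.02 ± 0.45). *Krtdap*, a secreted peptide of epidermal keratinocytes, stood at 33.0 and 137 CPM against 0 in both samples, at least 90.1-fold higher, with sample 2 well above sample 1. Several of these genes were also found outside the *Igf2* fibroblasts. The barrier-gene cells described below held *Krtdap* at 63.8 and 81.4 CPM and *Slc26a7* at 80.0 and 28.8 CPM. They also held *Slc47a1* at 266 and 110 CPM, *Slc38a1* at 45.6 and 30.5 CPM and *Slc35g1* at 27.5 and 13.7 CPM. Macrophages held *Slc38a1* at 177 and 178 CPM and mural cells *Npy1r* at 284 and 325 CPM. Neurons held *Npy1r* at 195 and 121 CPM and *Gap43* at 581 and 577 CPM. The gene model *Gm973* completed the 10, at 193 and 101 CPM against 0 and 1.11 CPM.

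In the other direction *Cdkn2a*, a locus of cell cycle inhibitors, had no UMI in the *Igf2* fibroblasts and stood at 228 and 285 CPM in the *Smoc2* fibroblasts, at least 265-fold lower. *A2m*, a broad protease inhibitor, gave 1 UMI against 1452. *Tenm2*, a teneurin adhesion molecule, stood at 3.37 and 3.85 CPM against 1814 and 1663 CPM (log2 fold change -8.90 ± 0.50). *Rbfox1*, a splicing factor of neurons and muscle, stood at 2.02 and 8.35 CPM against 1115 and 1704 CPM (-8.07 ± 0.62), with the limit that it overlaps another gene model on its strand. *Dlk1*, *Ttr*, *Nipal1* and *Corin* had no UMI either and were at least 53.9-fold lower, *Corin* also overlapping another model. *Rasgrp2* gave 0 and 0.642 CPM against 114 and 77.9 CPM and *Cyp26b1*, which breaks down retinoic acid, 0 and 0.642 CPM against 63.1 and 119 CPM. Adjusted p was 4.16e-05 or less for these 20 genes.

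The matrix programme differed by class of molecule. Of 19 genes of the fibrillar collagen matrix, 12 were higher and 2 lower than in *Smoc2* fibroblasts, with a median log2 fold change of 0.79, beside 0.00 over all genes tested. *Col1a2*, the partner chain of type I collagen, stood at 4184 and 4391 CPM against 2915 and 2587 CPM (log2 fold change 0.64 ± 0.11), but among the cells with more *Slc4a10* than *Sfrp4* (below) its adjusted p was 0.798. Larger differences were those of *Col12a1* and *Col14a1*, collagens that lie on the surface of fibrils: *Col12a1* stood at 1503 and 1394 CPM against 26.3 and 18.2 CPM (6.06 ± 0.25) and *Col14a1* at 406 and 418 CPM against 16.5 and 14.9 CPM (4.72 ± 0.20). *Sparc*, a collagen-binding glycoprotein, stood at 5132 and 5801 CPM against 2956 and 2358 CPM (1.04 ± 0.14). For all 4 genes both samples of the *Igf2* fibroblasts were above both of the other group, as in 24.5% of all genes.

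Elastic fibre genes showed a like pattern, with 12 of 19 higher, 4 lower and a median of 1.45. *Eln*, elastin itself, stood at 275 and 485 CPM against 11.3 and 17.1 CPM (4.70 ± 0.34). *Lox*, the oxidase that cross-links collagen and elastin, stood at 395 and 460.3 CPM against 14.3 and 5.53 CPM (5.52 ± 0.25). *Mfap4* stood at 713 and 751 CPM against 14.3 and 39.2 CPM (4.69 ± 0.59) and *Fbln1*, a fibulin, at 379.7 and 442 CPM against 32.3 and 32.1 CPM (3.67 ± 0.25). The fibrillins went apart: *Fbn1* was 0.74 ± 0.16 higher on the log2 scale and *Fbn2* was lower, at 0.673 and 10.9 CPM against 169 and 183 CPM (-4.90 ± 0.34). All of these values lay apart between the groups, as they did in 24.5% (above) and 26.2% (below) of all genes. Without sample 2 of the *Smoc2* fibroblasts the adjusted p of *Fbn1* was 0.0544, and among the cells with more *Slc4a10* it was 0.889.

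The small leucine-rich proteoglycans, which space collagen fibrils, all passed the test, 6 of 10 higher and 4 lower (median 1.52). *Bgn* (biglycan) stood at 1504 and 1692 CPM against 384 and 386 CPM (2.05 ± 0.15) and *Aspn* (asporin) at 456 and 313 CPM against 9.76 and 21.6 CPM (4.54 ± 0.25). *Fmod* (fibromodulin) stood at 143 and 135 CPM against 0 and 23.2 CPM (3.42 ± 0.55), with one *Smoc2* sample at 0 and an adjusted p of 0.216 in DESeq2. *Lum* (lumican) was lower, at 239.7 and 75.8 CPM against 4958 and 4314 CPM (-4.88 ± 0.36). *Dcn* (decorin) was lower as well, at 6426 and 6676 CPM against 32251 and 30774 CPM (-2.27 ± 0.47), but with empty-droplet RNA subtracted its adjusted p was 0.194. Of 6 genes that bear on matrix calcification 3 were higher and 2 lower (median 1.33), among them *Ecrg4*, a secreted precursor protein, at 2791 and 2607 CPM against 77.4 and 133 CPM (4.66 ± 0.30).

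Basement membrane genes went the other way, with none of 19 higher and 13 lower (median -1.36). *Lama2*, the laminin chain around Schwann cells and muscle, stood at 254 and 209 CPM against 2543 and 2407 CPM (-3.42 ± 0.16). *Col15a1*, a collagen of the basement membrane zone, stood at 159 and 172 CPM against 1040.3 and 865 CPM (-2.52 ± 0.13). *Lamc1* stood at 94.3 and 95.7 CPM against 469 and 432 CPM (-2.24 ± 0.14) and *Nid1*, which links laminin to collagen IV, at 202 and 171 CPM against 454 and 426 CPM (-1.24 ± 0.12). The groups did not overlap for any of the 4; both samples were below in 26.2% of all genes. The adjusted p of the matrix genes named in these 4 paragraphs was 0.00157 or less.

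Around *Igf2* itself, 10 of 17 other genes of the insulin-like growth factor system were higher and 3 lower (median 1.08). The ligand *Igf1* stood at 1565 and 977 CPM against 339.5 and 342 CPM (log2 fold change 1.90 ± 0.21). *Igfbp5*, a binding protein that holds the ligands in the matrix, stood at 7944 and 7495 CPM against 212 and 233 CPM (5.12 ± 0.26) and was detected in 93.8% and 93.2% of the cells at 2000 UMIs, against 9.52% and 10.7% of the *Smoc2* fibroblasts and 12.7% and 11.0% of SGCs. Nearly every *Igf2* fibroblast thus held it; mural cells, the next highest group by level, were not read for detection. *Igfbp3* stood at 49.8 and 89.2 CPM against 0.751 and 4.97 CPM (4.45 ± 0.56), *Igfbp2* at 33.0 and 136 CPM against 0.751 and 11.6 CPM (3.62 ± 0.65), *Igfbp6* at 2533 and 2849 CPM against 1265 and 952 CPM (1.28 ± 0.25) and *Igfbp4* at 863 and 821 CPM against 558 and 496 CPM (0.68 ± 0.12). Of the receptors, *Igf2r*, which clears the ligand, was 0.68 ± 0.19 higher on the log2 scale, at 73.4 and 66.8 CPM against 35.3 and 50.3 CPM. *Igf1r*, which signals, was lower, at 70.7 and 68.7 CPM against 119 and 144 CPM (-0.93 ± 0.16). For these 8 genes the adjusted p was 0.015 or less. That of *Igf2r* was 0.103 without sample 1 of the *Igf2* fibroblasts and 0.165 without sample 1 of the *Smoc2* fibroblasts, that of *Igfbp6* was 0.0582 in DESeq2, and *Igfbp4* turned to -0.84 among the cells with more *Slc4a10* than *Sfrp4* (below).

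Imprinted genes as a list did not follow *Igf2*: of 24 tested, 7 were higher and 9 lower, with a median of -0.78, or -0.70 with genes at 0 placed at their bound. *H19* stood at 1108 and 1007 CPM against 29.3 and 12.7 CPM (5.73 ± 0.28) and was detected in 60.8% and 53.4% of the cells against 3.97% and 1.79%. *Gnas*, which encodes the stimulatory G protein, stood at 4290.0 and 4458 CPM against 1210.1 and 1258 CPM (1.83 ± 0.10). *Grb10*, an adaptor that restrains insulin signalling, stood at 417 and 318 CPM against 122 and 149.8 CPM (1.43 ± 0.16) and *Cdkn1c*, a cell cycle inhibitor, at 209 and 201 CPM against 74.4 and 110.0 CPM (1.13 ± 0.21). *Meg3* was lower, at 183 and 209.9 CPM against 477 and 515 CPM (-1.34 ± 0.20), as was *Dlk1* of the same locus (above). For the 5 genes given here the adjusted p was 0.000421 or less.

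Of 26 genes of the BMP and TGF-beta pathways 16 were higher and 4 lower (median 1.56). The targets *Id1* and *Id2*, inhibitors of helix-loop-helix factors, stood at 154 and 139 CPM against 9.01 and 19.3 CPM (3.30 ± 0.23) and at 442 and 404 CPM against 19.5 and 10.5 CPM (4.87 ± 0.34). *Smad6*, an inhibitory SMAD, stood at 47.8 and 70.0 CPM against 1.502 and 4.42 CPM (4.21 ± 0.53), and *Nog*, the secreted BMP antagonist noggin, at 64.0 and 78.3 CPM against 5.26 and 0 CPM (4.96 ± 0.76). Among ligands *Tgfb3* (3.00 ± 0.22) and *Gdf10* (2.19 ± 0.30) were higher and *Bmp5* (-3.90 ± 0.27) and *Bmp7* (-5.49 ± 0.44) lower. *Bmp7* stood at 0.673 and 1.93 CPM against 61.6 and 58.6 CPM, so ligands, antagonists and targets of 1 pathway did not all go one way. Their adjusted p was 5.77e-05 or less.

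In the retinoid pathway 9 of 18 genes were higher and 5 lower (median 0.79, or 0.63 with genes at 0 placed at their bound). The binding protein *Crabp2*, which carries retinoic acid to its receptor, stood at 158 and 177 CPM against 4.51 and 1.11 CPM (6.03 ± 0.39). *Rbp4*, the retinol carrier of plasma, stood at 265 and 223 CPM against 21.03 and 10.5 CPM (4.02 ± 0.37) and *Dhrs3*, which turns retinal back into retinol, at 261 and 243 CPM against 51.8 and 43.7 CPM (2.41 ± 0.17). *Rarres2*, the secreted chemerin, was lower, at 119 and 106 CPM against 649 and 563 CPM (-2.43 ± 0.13). *Aldh1a3*, a retinoic acid synthase, had no UMI here and stood at 19.5 and 14.4 CPM in *Smoc2* fibroblasts, at least 16.8-fold lower. The adjusted p was 0.000117 or less for the 5 genes.

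Growth factors were higher or did not pass, 13 and 9 of 22, with none lower (median 1.66, or 1.54 with bounds). *Ccn3*, a matricellular protein, stood at 1028 and 1029 CPM against 32.3 and 10.5 CPM (5.68 ± 0.32). *Angpt1*, the angiopoietin that stabilizes vessels, stood at 739.9 and 456 CPM against 22.5 and 2.76 CPM (5.72 ± 0.51). *Ccn5* stood at 87.5 and 109 CPM against 3.76 and 0 CPM (5.91 ± 0.65) and *Ccn2* at 158 and 273 CPM against 35.3 and 43.1 CPM (2.44 ± 0.25). Every sample of the *Igf2* fibroblasts lay above the other group for these genes, as in 24.5% of all genes.

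Wnt genes outside the rule were called in both directions, to be read beside the 9.16% and 10.6% of all genes that were higher and lower. Of 10 Wnt ligands 3 were higher and 1 lower (median 1.03, or 1.81 without those at 0 in both groups), of 14 secreted modulators 4 and 3 (0.02, or 0.18), and of 20 receptors and targets 6 and 5 (0.57). *Wnt9a* stood at 72.7 and 70.0 CPM against 8.26 and 1.11 CPM (4.08 ± 0.47) and *Rspo3*, which strengthens Wnt signals, at 117 and 145 CPM against 3.76 and 7.18 CPM (4.52 ± 0.50). *Wnt5a* was lower, at 33.0 and 19.9 CPM against 155 and 184 CPM (-2.69 ± 0.28). Neurotrophic and axon guidance genes were split, 9 of 29 higher and 7 lower (median 0.04). *Slit2*, a secreted repellent of axons, stood at 818 and 715 CPM against 6.01 and 8.84 CPM (6.65 ± 0.43), although it and *Ntn1* (netrin, 2.69 ± 0.22) overlap other gene models on their strand. *Sema3d* stood at 127 and 152 CPM against 2.25 and 2.76 CPM (5.76 ± 0.29), and the membrane ligand *Efnb2* was lower, at 6.06 and 6.42 CPM against 132 and 130.4 CPM (-4.39 ± 0.33). The adjusted p of the growth factor, Wnt and guidance genes named was 1.94e-06 or less.

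Solute carriers as a family gave 45 higher and 32 lower of 287 tested (median 0.04). The shares over all genes tested were 9.16% higher and 10.6% lower. *Slc38a2*, a neutral amino acid carrier, stood at 1068 and 1085 CPM against 195 and 208 CPM (log2 fold change 2.42 ± 0.16), *Slc23a2*, which takes up vitamin C, at 315 and 315 CPM against 48.8 and 43.7 CPM (2.78 ± 0.17), and *Slc47a2*, kin of *Slc47a1*, at 143 and 109 CPM against 0.751 and 4.97 CPM (5.30 ± 0.57). *Slc1a3*, a glutamate transporter, was lower, at 68.0 and 50.1 CPM against 486 and 466 CPM (-3.01 ± 0.22). These solute carriers had adjusted p of 7.4e-07 or less.

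Lists of genes known from the layers of nerve and from the meninges were set beside these cells. Of 12 epineurial and adventitial genes 7 were higher and 3 lower (median 2.16). *Pi16* and *Clec3b*, markers of adventitial fibroblasts, stood at 473 and 225 CPM against 9.76 and 8.29 CPM (5.28 ± 0.35) and at 340.0 and 352 CPM against 39.1 and 27.6 CPM (3.40 ± 0.18), and *Ly6a* at 378 and 504 CPM against 18.8 and 19.3 CPM (4.53 ± 0.26). *Cd34* (-1.11 ± 0.18) and *Creb5* (-2.07 ± 0.29) of the same list were lower. Of 8 endoneurial genes 6 were lower and 1, *Cygb*, higher (0.76 ± 0.17); the median was -4.37. *Apod*, a lipid carrier, stood at 902 and 1339.9 CPM against 56310.5 and 60956 CPM (-5.71 ± 0.58) and the transcription factor *Sox9* at 4.04 and 4.49 CPM against 143 and 159 CPM (-5.14 ± 0.29).

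Of 19 meningeal genes 10 were higher and 5 lower (median 1.04, or 1.01 with bounds). *Zic1*, *Foxp2* and *Eya2*, transcription regulators, stood at 379.7 and 383, 1340.4 and 1432 and 567 and 675 CPM, with log2 fold changes of 1.49 ± 0.17, 1.57 ± 0.22 and 1.80 ± 0.24, and *Ogn*, a matrix proteoglycan, at 1648 and 1357 CPM against 534 and 522 CPM (1.51 ± 0.14). *Slc6a13*, a GABA and taurine carrier, was lower, at 0.673 and 14.1 CPM against 104 and 77.9 CPM (-3.57 ± 0.47), and so was *Tbx18*, at 1.35 and 0.642 CPM against 79.6 and 54.2 CPM (-6.04 ± 0.55). *Ptgds*, abundant in meninges, also passed as higher (2.75 ± 0.82), but its samples overlapped, at 8.08 and 136 CPM against 9.01 and 12.2 CPM, and without sample 2 of the *Igf2* fibroblasts its log2 fold change was -0.42 (adjusted p 0.887). Of 8 perineurial genes 4 were higher and 2 lower (median 0.67, or 1.28 without a gene at 0 in both groups); *Ptch1*, the hedgehog receptor, was lower, at 21.5 and 10.9 CPM against 297 and 308 CPM (-4.23 ± 0.22). Each of the 4 layer lists thus had genes on both sides. Among the layer genes called here the adjusted p was 0.0207 or less, but 0.269 for *Eya2* and 0.0557 for *Slc6a13* in DESeq2; among the cells with more *Slc4a10* it was 0.228 for *Clec3b* and 0.511 for *Cygb*, and for *Ptgds* it was also 0.107 and 0.121 without sample 1 or 2 of the *Smoc2* fibroblasts.

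Of 25 immune ligands and complement genes 5 were higher and 10 lower (median -0.70). The chemokine *Cxcl1* stood at 8.08 and 4.49 CPM against 549 and 985 CPM (log2 fold change -6.94 ± 0.56), *Ccl2* at 1.35 and 3.21 CPM against 459.7 and 279.6 CPM (-7.31 ± 0.50) and the cytokine *Il6* at 2.02 and 3.21 CPM against 74.4 and 66.3 CPM (-4.73 ± 0.54). *Ccl7* stood at 8.08 and 3.21 CPM against 395 and 360.3 CPM (-6.07 ± 0.31). Going the other way, the complement gene *Cfb* (factor B, an activator) stood at 41.1 and 61.0 CPM against 5.26 and 2.21 CPM (3.85 ± 0.57), as did the chemokine *Cxcl14*, at 109 and 121 CPM against 4.51 and 11.1 CPM (3.81 ± 0.52). Immediate early and stress genes, which enzymatic dissociation is known to induce, moved with the lower chemokines: none of 17 was higher and 15 were lower (median -2.52). *Fos* stood at 689 and 662 CPM against 5431 and 6620.1 CPM (-3.16 ± 0.23), *Junb* at 141 and 252 CPM against 2612 and 2791 CPM (-3.78 ± 0.29) and *Btg2* at 48.5 and 48.8 CPM against 743 and 1101 CPM (-4.25 ± 0.30). The list summed to 2795 and 3376 CPM in the *Igf2* fibroblasts and 18832 and 22884 CPM in the *Smoc2* fibroblasts, and its part in the other differences was not tested. *Hspa1a*, a heat shock gene, did not pass, at 72.0 and 171 CPM against 66.1 and 108 CPM. For the immune and immediate early genes called the adjusted p was 2.87e-05 or less.

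Of the endothelin genes, which the study is about, 1 of 6 was higher, beside 9.16% of all genes: *Ednra*, the type A receptor, at 68.7 and 89.9 CPM against 18.03 and 19.9 CPM (log2 fold change 2.06 ± 0.24, adjusted p 2e-06). *Ednrb*, the type B receptor, gave 34 and 51 UMIs against 34 and 96 and did not pass. *Edn3* stood at 15.5 and 14.8 CPM against 21.03 and 19.9 CPM and *Edn1* at 0 and 0 CPM, and neither passed. Against the mean of the 7 types 4 of the 6 were higher and 1 lower (19.1% and 16.2% of all genes). Against the barrier-gene cells the counts were 2 and 2 (8.77% and 11.2%). None of 8 cycling genes passed against the *Smoc2* fibroblasts, with *Mki67* at 0 and 1.28 CPM and *Top2a* at 0 and 0.642 CPM. Among the markers of other types, *Pmp22* (0.87 ± 0.10) and *Tagln* (4.32 ± 0.51) were higher and *Ngfr* (-7.71 ± 0.72) and *Emcn* (-3.59 ± 0.77) lower than in *Smoc2* fibroblasts (adjusted p 0.00153 or less), and no other gene of those lists passed. With empty-droplet RNA subtracted *Pmp22* had an adjusted p of 0.202, and among the cells with more *Slc4a10* that of *Tagln* was 0.0638 and that of *Emcn* 0.0737.

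**Figure D3:**
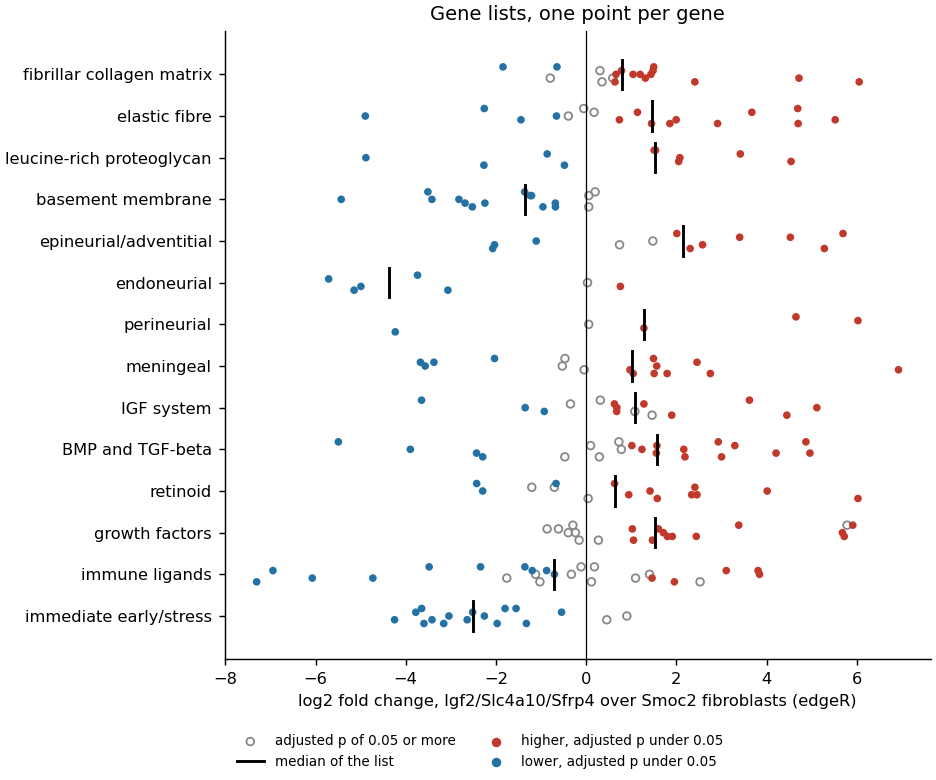
Log2 fold change of the *Igf2* over the *Smoc2* fibroblasts for the tested genes of 14 lists, 1 point per gene, filled where the adjusted p was under 0.05, with the median of each list as a bar (genes at 0 in either group at their bound, genes at 0 in both left out). The bars of the fibrillar collagen, elastic fibre, proteoglycan, growth factor and BMP lists lie right of 0, those of the basement membrane, endoneurial and immediate early lists left of it, and most lists hold points on both sides.

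A further comparison was with 255 cells (94 and 161) that carry the barrier genes left out of the rule, with *Slc2a1*, *Itgb4*, *Cldn1* and *Perp* at 6 UMIs or more together. Against them 1519 genes were higher in the *Igf2* fibroblasts (8.77% of those tested) and 1945 lower (11.2%), and without sample 2 of the barrier-gene cells 999 were higher and 1332 lower. Both samples lay above both of the barrier-gene cells in 24.1% of the genes tested and below both in 26.6%. The 2 groups were cut on opposite sides of these barrier genes, so genes that go with them differ by construction. The barrier-gene cells held the perineurial genes, of which 6 of 8 were lower and none higher in the *Igf2* fibroblasts (median -2.57). *Ptch1* stood at 683 and 682 CPM there against 21.5 and 10.9 CPM here (log2 fold change -5.40 ± 0.21), *Krt19*, a keratin, at 80.7 and 51.6 CPM against 7.41 and 11.6 CPM (-2.78 ± 0.39), and *Msln*, mesothelin, at 25.01 and 10.2 CPM against 0 (adjusted p 0.519 in DESeq2). *Igfbp6* was -0.66 ± 0.25 on the log2 scale and did not pass (adjusted p 0.0697), although it did with the sample number as a block (0.0168) and without sample 2 of the barrier-gene cells (0.0385). *Stra6*, which takes up retinol and overlaps another gene model, stood at 190.1 and 195 CPM against 6.06 and 6.42 CPM (-4.95 ± 0.29).

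The barrier-gene cells held some RNA of genes of the rule, given with no test. *Igf2* stood at 432 and 125 CPM in them, *Slc4a10* at 333 and 149 CPM and *Bnc2* at 1207 and 1105 CPM, the last as high as in the *Igf2* fibroblasts. At 2000 UMIs per cell, *Igf2* was found in 11.7% and 7.45% of them and *Slc47a1* in 13.8% and 6.83%, more than in *Smoc2* fibroblasts (0% and 1.19%).

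Their profiles also held more RNA of other cells. The macrophage and leukocyte markers summed to 1069.7 and 1826 CPM in them, most of it *Cd74* (953 and 1667 CPM), and an estimated 14.04% and 17.5% of their UMIs came from empty droplets. When barrier-gene cells with leukocyte RNA or without collagen RNA were left out, a choice made after seeing the data, 1195 genes were higher and 1313 lower. This kept 64 of the 94 barrier-gene cells in sample 1 and 114 of the 161 in sample 2. Whether some of the cells left out were whole leukocytes was not tested.

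The genes of largest increase over the barrier-gene cells were *Vipr2*, a receptor for vasoactive intestinal peptide, at 69.3 and 35.3 CPM against 0 in both samples (at least 77.0-fold higher), and *Clec3b*, at 340.0 and 352 CPM against 3.75 and 2.81 CPM (log2 fold change 6.77 ± 0.25). *Pi16* stood at 473 and 225 CPM against 8.75 and 7.02 CPM (5.50 ± 0.33), *Dio2* at 736 and 456 CPM against 7.503 and 4.91 CPM (6.66 ± 0.28) and *Cxcl14* at 109 and 121 CPM against 2.50 and 1.05 CPM (6.17 ± 0.64). *Sfrp2*, another secreted Wnt modulator, *Nppc*, the C-type natriuretic peptide, and *Epha3*, an ephrin receptor, differed widely between the 2 samples of the *Igf2* fibroblasts, at 14.8 and 135, 264 and 95.7 and 394 and 102 CPM, but stood above both samples of the other cells, at 0.625 and 0.351, 5.63 and 1.75 and 9.38 and 2.10 CPM. *Prr16* and *Ly6c1* completed the 10, with 51.2 and 50.7 CPM and 70.0 and 64.2 CPM.

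Lower than in the barrier-gene cells were *Thbs4*, a thrombospondin, with no UMI here against 252 and 233 CPM (at least 243-fold lower), *Tenm2*, at 3.37 and 3.85 CPM against 1353 and 1635 CPM (-8.69 ± 0.50), and *Cdkn2a*, with no UMI against 28.1 and 75.8 CPM. *Dleu7* also had no UMI here, *Sbspon* stood at 0.673 and 0 CPM against 111 and 139 CPM (-8.52 ± 0.46) and *Kcnj13*, a potassium channel, at 0 and 0.642 CPM against 70.6 and 67.7 CPM (-7.64 ± 0.59). The other 4 of the 10, *Wdfy4*, *Plbd1*, *Cd86* and *Cd52*, are genes of leukocytes; against the barrier-gene cells without leukocyte RNA, a choice that lowers such genes by itself, the adjusted p was 0.584 for *Wdfy4* and 0.927 for *Cd52*. Fibrillar collagen genes were higher in 12 of 19 and lower in 2 (median 1.78, beside 0.00 over all genes), elastic fibre genes in 12 and 3 of 19 (1.09), insulin-like growth factor genes in 10 and 2 of 17 (1.34) and epineurial genes in 8 and 1 of 12 (1.96). *Igfbp5* stood at 7944 and 7495 CPM against 294 and 184 CPM (5.03 ± 0.26) and *Igf1* at 1565 and 977 CPM against 87.5 and 74.4 CPM (3.99 ± 0.24). Basement membrane genes were again mostly lower, 13 of 19, with 2 higher (median -1.03, or -0.91 without a gene at 0 in both), as were immediate early genes, 13 of 17 (median -1.25). The adjusted p of the genes named in the comparison with the barrier-gene cells was 0.00184 or less, *Igfbp6* aside.

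Across all 9 other cell groups, 574 genes (3.31% of those tested) were higher in both samples of the *Igf2* fibroblasts than in either sample of any other group. The 57 fibroblasts of neither group were not among the 9, and in them *Dio2* stood at 352 and 539 CPM without TMM, near its level here. By the ratio of means *Dio2* stood first, 96.1 times the next group, the barrier-gene cells at 6.21 CPM. *Pi16* followed after *Sfrp2*, *Gm26512* and *Nppc*, at 38.6 times the *Smoc2* fibroblasts. *Lox* was 19.1 times and *Igfbp5* 12.4 times the next group, which was the mural cells for *Igfbp5*. *Comp*, a cartilage matrix protein chosen for mention after its values were seen, stood at 863 and 923 CPM, 23.9 times the mean of the barrier-gene cells. That mean of 37.3 CPM came mostly from their sample 1, with 111 UMIs against 15 in sample 2. *Nox4*, an oxidase that makes hydrogen peroxide, and *Gas1*, a hedgehog co-receptor, were chosen in the same way, at 14.7 and 12.9 times the next group. Ratios to groups at a few CPM rest on few UMIs there and are descriptions only.

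The *Igf2* fibroblasts were not uniform. Their *Slc4a10* ranged from 0 to 49.8 per 10000 UMIs in sample 1 (median 11.96) and from 0 to 94.2 in sample 2 (median 8.69), and their *Sfrp4* from 0 to 218 (median 26.8) and from 0 to 198 (median 32.7). Both genes were held by 68.0% and 72.8% of the cells at 2000 UMIs, *Slc4a10* alone by 12.4% and 5.83%, and *Sfrp4* alone by 18.6% and 18.4%. Across the 97 and 103 cells the 2 genes ran in opposite directions, with Spearman's rho of -0.46 and -0.17, a description only, since both are summed in the rule and choosing cells on a sum lowers the correlation of its terms. *Slc47a1* went with *Slc4a10* (0.56 and 0.45) and against *Sfrp4* (-0.37 and -0.38), the first and the last of 900 genes respectively. *Dcn* ran against *Slc4a10* (-0.55 and -0.27) and with *Sfrp4* (0.36 and 0.46), and *S100a6*, a calcium-binding protein, also with *Sfrp4* (0.39 and 0.46). These are correlations across cells of 1 library each at equal depth.

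**Figure D4:**
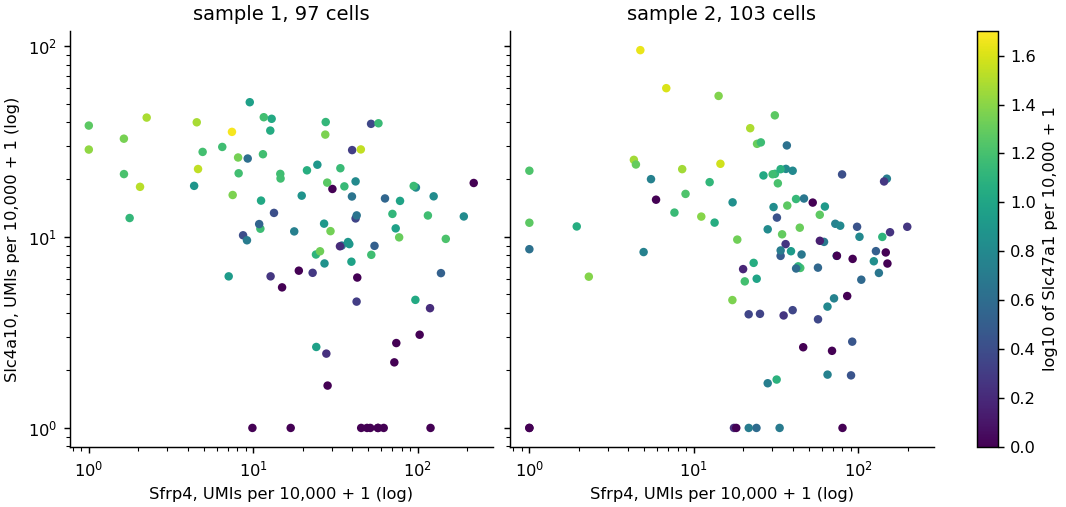
Each point is 1 *Igf2* fibroblast, with *Sfrp4* on the x axis and *Slc4a10* on the y axis, in UMIs per 10000 plus 1 on log scales, coloured by log10 of *Slc47a1* per 10000 plus 1; the left panel holds the 97 cells of sample 1 and the right panel the 103 cells of sample 2. Cells with much *Slc47a1* (light) gather at high *Slc4a10* and low *Sfrp4*, and cells with none (dark) at the other end, with a continuous spread between them.

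For a view of the ends of this range, the cells were split, after seeing the data, by which of the 2 genes held more UMIs, giving 31 and 23 cells with more *Slc4a10*, 64 and 78 with more *Sfrp4*, and 2 and 2 with equal numbers. Values are CPM in the summed cells without TMM, and no test was run because the split used these genes. *Slc47a1* stood at 1619.7 and 1863 in the cells with more *Slc4a10* and at 579 and 556 in those with more *Sfrp4*. *Slc26a7* stood at 237 and 250.3 against 14.5 and 35.8, and *Slc38a2* at 1778 and 2165 against 820.4 and 906, so these 3 solute carriers were higher in the cells with more *Slc4a10*; the other carriers are not counted here. *Igf2* did too, at 2483 and 2318 against 1220.0 and 943, and so did *Mgp*, at 7556 and 12009 against 5052 and 4294, *Ecrg4*, at 4509.6 and 5374 against 2295 and 2143, and *Thbs1*, a thrombospondin, at 892 and 1098 against 188 and 269.

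Other genes were higher in the cells with more *Sfrp4*, among them 3 of the 12 epineurial genes, picked after their values were seen. *Pi16* stood at 738 and 276 in the cells with more *Sfrp4* and at 85.7 and 93.8 in those with more *Slc4a10*, *Clec3b* at 479 and 467 against 165 and 3.48, and *Ly6a* at 529.8 and 645 against 187 and 101. *Dcn* stood at 8745 and 8433 against 3402 and 1717 and *Col14a1* at 592 and 525 against 141 and 125. *Pi16* was concentrated in few cells, with none in 59.8% and 63.1% of all *Igf2* fibroblasts and up to 177 and 58.0 per 10000 UMIs in the highest. In what follows the cells with more *Slc4a10* are given first. Between the ends *Comp* (815 and 969.8 against 996 and 988) and *Mfap5* (1415 and 1467 against 1210 and 1312) lay close together in each sample. *Col1a1*, a gene of the rule, did so in sample 1 but was lower with more *Slc4a10* in sample 2 (4327 and 3719 against 4528 and 5156). *Dio2* was lower with more *Slc4a10* in both samples (591 and 90.4 against 909 and 584). *H19* stood at 1688 and 751 against 974 and 1154, higher with more *Slc4a10* in sample 1, as *Igf2* was, and lower in sample 2.

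**Figure D5:**
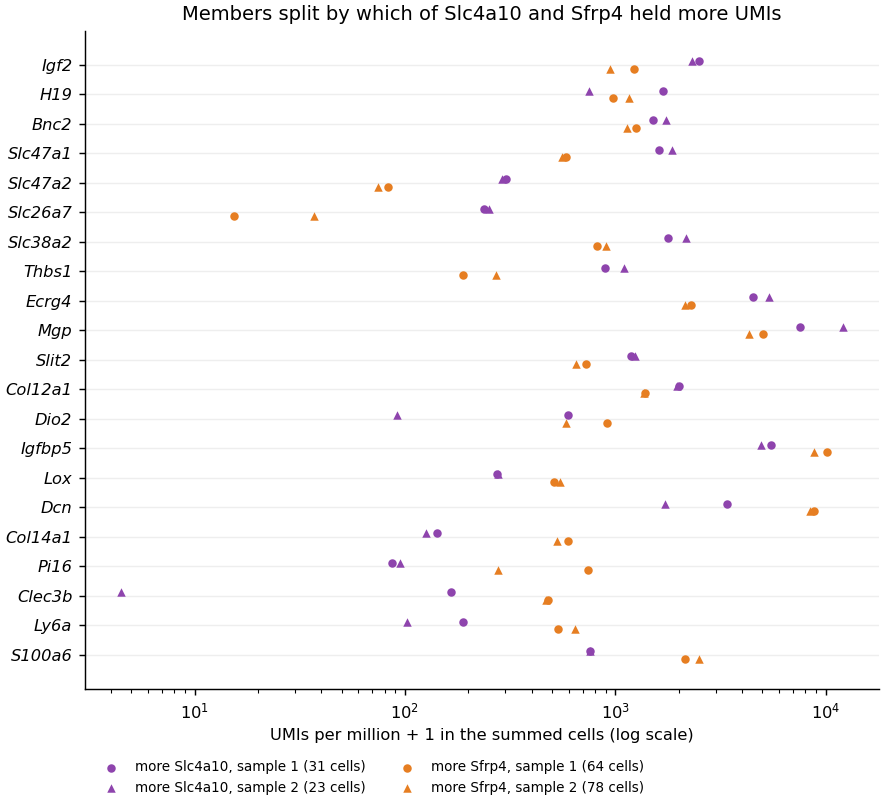
Levels of 21 genes in CPM plus 1 on a log scale, in the *Igf2* fibroblasts with more *Slc4a10* than *Sfrp4* (31 and 23 cells) and in those with more *Sfrp4* (64 and 78 cells), with circles for sample 1 and triangles for sample 2. The transporter genes *Slc47a1*, *Slc47a2*, *Slc26a7* and *Slc38a2* lie further right in the cells with more *Slc4a10*, and *Dcn*, *Pi16*, *Clec3b*, *Ly6a* and *S100a6* in the cells with more *Sfrp4*, in both samples.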

How the data were processed

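The deposited files hold raw UMI counts per gene and droplet, made by the authors with Cell Ranger 7.1.0 (per the file headers) on mm10 (per the labels); the annotation and whether intronic reads were counted are not given in the sources used here. All droplets were deposited, so cells were called here by over 300 genes, at least 2000 UMIs and a mitochondrial share of up to 22%. No doublet caller was run; among the 200 cells 2 exceeded 2 times their median UMIs and 46 held a UMI of a gene barred at over 2 UMIs. The members, gene lists and tests were chosen with earlier results of these data known.

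Counts were summed per sample and cell group and fitted in one model over 10 groups and 2 samples (edgeR 4.0.16, quasi-likelihood test, TMM, genes reaching 10 counts in 2 or more profiles, Benjamini-Hochberg over 17317 genes, threshold 0.05); the 20 genes of the rules and mitochondrial genes were left out. Summed counts of the *Igf2* fibroblasts were 1378615 and 1471857 UMIs. The SE is the log2 fold change divided by the root of F. In simulated data for the comparison of the 2 fibroblast groups (17072 genes), changes were placed only in genes at 10 CPM or more in *Smoc2* fibroblasts. Of these changes 72% of 2-fold and 100% of 4-fold were recovered, and 4.444% of calls fell on unchanged genes. Recovery below that level was not measured. Named genes were those of the fixed lists and, per comparison and direction, the 10 largest fold changes among called genes with samples apart and a mean of at least 50 CPM on the higher side; a few list genes are not reported here. Exact binomial intervals (95%) and floors of 3 UMIs cover counting error only. Profiles with the same sample number come from one dissociation; the median correlation of their deviations was 0.0569 over 6546 genes. The samples were not 1 library deposited again (chi-square of 15.6 per degree of freedom). Alternatives were DESeq2 1.42.0, no TMM, no filter, a sample block, each sample left out, only the groups compared, equal depth, subtraction of empty-droplet RNA and other limits in the rule. Gene positions are from GENCODE M21 and promoters from RefSeq GRCm38.p6.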

Additional observations from a re-analysis of the deposited data

How the results depend on the processing

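Leaving out 1 sample of one group at a time gave 1134 to 1317 genes higher and 1290 to 1540 lower than in *Smoc2* fibroblasts, 999 to 1287 higher and 1332 to 1815 lower than in the barrier-gene cells, and 2576 to 2607 higher and 1862 to 1875 lower than in the 7 other types; the lone sample is then assumed to vary like the others. With the sample number as a replicate block the 3 comparisons gave 1585 and 1837, 1538 and 1960, and 3295 and 2777 genes higher and lower, and of the genes named only *Igfbp6* against the barrier-gene cells changed its call. The mean share of fibroblasts that were *Igf2* fibroblasts, 36.5%, was 21.9% when a ratio of 4 and 8 UMIs were asked for, and 49.7% when no UMI of *Ncmap*, *Scn7a*, *Rgs5*, *C1qa* or *Flt1* and *Fabp7* under 10 per 10000 UMIs were allowed. Of 178 results on named genes, 150 kept direction and call under every alternative run. Signs turned in 3 genes against *Smoc2* fibroblasts. *Hspa1a* ranged from -0.30 (without sample 2 of the *Igf2* fibroblasts) to 0.95 over the samples left out and stood at -0.50 among cells with more *Slc4a10*. *Igfbp4* stood at -0.84 among those cells. *Ptgds* ranged from -0.42 (without sample 2 of the *Igf2* fibroblasts) to 3.65 and stood at -0.93 under those limits and -0.85 among cells with more *Sfrp4*. Among the cells with more *Slc4a10*, *Col1a2*, *Col3a1*, *Fbn1*, *Clec3b*, *Cygb*, *Tagln* and *Emcn* also lost the call against *Smoc2* fibroblasts, and the cause was not tested. On simulated data for the 2 fibroblast groups, 72% of 2-fold and 100% of 4-fold changes were recovered among genes at 10 CPM or more in *Smoc2* fibroblasts. How the number of cells bears on the calls was not tested, and genes at a few CPM rest on few UMIs.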

Other observations

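In the 57 fibroblasts of neither group (30 and 27 cells), summed per sample, *Slc4a10* stood at 737 and 1115 CPM in samples 1 and 2, *Sfrp4* at 1206 and 1307 CPM, *Bnc2* at 1006 and 1258 CPM and *Igf2* at 402 and 253 CPM. Genes outside the rule were measured too, with *Mgp* at 7677 and 8677 CPM, *H19* at 665 and 646 CPM, *Dio2* at 352 and 539 CPM and *Slc47a1* at 657 and 1267 CPM. No test was run on these cells, which include 9 with no UMI of any of the 8 genes of the rule.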
